A study of Mus musculus with 12 samples.

Results

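The genes described here are 7 transcripts of the red cell lineage, chosen by name: the alpha globin genes Hba-a1 and Hba-a2, the beta globin genes Hbb-bs and Hbb-bt, the heme synthesis enzyme Alas2, the anion exchanger Slc4a1 and the alpha globin chaperone Ahsp. Of these, 6 had a row among the 54532 genes of the count and FPKM tables, and Ahsp was not analysed here. They were followed across 12 RNA-seq libraries of newborn mouse testis, in 4 groups of 3. The mice carried the transgene Tg(Pou5f1-EGFP)2Mnn, in which the Pou5f1 (OCT4) gene drives green fluorescent protein and so marks germ cells. Dams were injected with dexamethasone (dex), a synthetic glucocorticoid receptor agonist, at 10 μg per g of body weight at E17.5 and E18.5 (embryonic days), and pups received the same dose at postnatal day 0, while the controls received saline. At postnatal day 1, cells of the male testis were separated by their GFP signal into positive (germ) and negative (somatic) fractions, giving the groups saline somatic, dex somatic, saline germ and dex germ. The GFP-negative fraction is not 1 cell type: it holds every live cell of the testis that lacks the transgene's signal, which can include blood cells. A replicate pools the testes of several litters, and the methods consulted name no step that removes red cells.

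Adult hemoglobin is built from paired alpha and beta globin chains, each holding a heme group. ALAS2 makes the first precursor of heme in erythroid cells, AHSP shields free alpha chains, and the product of Slc4a1, band 3, exchanges chloride and bicarbonate across the red cell membrane and anchors its skeleton. Mature mouse red cells have no nucleus, and reticulocytes, the youngest circulating cells, still carry globin mRNA, which makes these transcripts a common sign of blood in a dissociated organ.

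The libraries held 18459692 to 25178477 counts. The 6 members with a row took 0.00790% to 0.0363% of the counts in a somatic library and 0.000430% to 0.000995% in a germ library. The sorted populations carried their own markers: the summed level of 7 germ cell markers was 2761 to 3007 CPM (counts relative to library size, scaled by TMM) in germ libraries and 7.65 to 9.63 CPM in somatic libraries, and that of 7 Sertoli cell markers was 3450 to 4119 CPM in somatic libraries and 28.5 to 54.6 CPM in germ libraries. As these are bulk samples, fewer red cells and less globin mRNA per red cell cannot be told apart.

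The promoters of the members are shown because they display what the globin genes share and where Alas2 differs. Each is the RefSeq window of 300 bases on GRCm38.p6 that ends 50 bases past the start site. Capitals mark a GATA motif (GATA with A or T before it and with A or G after it), a CACCC box (CACCC) or a CCAAT box (CCAAT), each searched on both strands, and a TATA-like word (TATAA) searched on the printed strand alone.
Hba-a1 (chr11:32283422-32283721, plus strand): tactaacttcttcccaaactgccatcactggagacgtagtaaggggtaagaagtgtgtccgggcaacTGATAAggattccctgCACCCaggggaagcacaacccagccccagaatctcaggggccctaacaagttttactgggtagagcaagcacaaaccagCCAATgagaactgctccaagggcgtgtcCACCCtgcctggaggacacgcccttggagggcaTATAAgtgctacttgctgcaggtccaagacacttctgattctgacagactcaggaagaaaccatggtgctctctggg
Hbb-bs (chr7:103827879-103828178, minus strand): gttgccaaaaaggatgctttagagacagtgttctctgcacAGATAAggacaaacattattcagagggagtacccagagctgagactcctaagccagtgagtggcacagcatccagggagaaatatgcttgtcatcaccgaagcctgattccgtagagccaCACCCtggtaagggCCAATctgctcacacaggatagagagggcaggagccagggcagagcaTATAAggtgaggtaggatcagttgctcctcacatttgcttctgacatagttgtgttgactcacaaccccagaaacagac
Hbb-bt (chr7:103813874-103814173, minus strand): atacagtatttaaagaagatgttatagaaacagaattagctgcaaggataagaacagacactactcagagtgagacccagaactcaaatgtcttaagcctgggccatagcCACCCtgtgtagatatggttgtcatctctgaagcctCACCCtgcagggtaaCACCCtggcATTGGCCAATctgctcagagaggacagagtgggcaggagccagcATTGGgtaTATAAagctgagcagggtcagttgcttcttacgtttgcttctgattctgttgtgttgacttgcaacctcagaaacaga
Alas2 (chrX:150547167-150547466, plus strand): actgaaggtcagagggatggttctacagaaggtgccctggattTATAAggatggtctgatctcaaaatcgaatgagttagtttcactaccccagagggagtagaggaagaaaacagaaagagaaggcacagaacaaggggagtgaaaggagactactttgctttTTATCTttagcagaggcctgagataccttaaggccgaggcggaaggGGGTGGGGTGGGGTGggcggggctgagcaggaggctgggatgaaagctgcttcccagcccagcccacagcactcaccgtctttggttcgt
The Hba-a2 window, at chr11:32296242-32296541, shared an unbroken run of 297 bases with that of Hba-a1 and is not printed. The TATA-like word began 27 to 29 bases before the start site in the 3 globin windows printed, and 207 bases before it in Alas2. A CCAAT box was present in each of the 3 globin windows and not in that of Alas2, a GATA motif in Hba-a1, Hbb-bs and Alas2 but not in Hbb-bt, and 1 to 3 CACCC boxes in each of the 4. No base was shared between matches of different motifs. Of 32851 promoter windows of the same length, 29.8% held a GATA motif, 57.5% a CACCC box, 37.4% a CCAAT box and 5763 of them held the TATA-like word. The core of the glucocorticoid response element, GNACA followed after any 3 bases by TGTNC and searched on both strands, was in 0.475% of all windows and in none of the 5 member windows. Slc4a1 had no window in the table used. These matches describe letters only, and none was tested for binding.

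The alpha and beta globin genes each come as near-identical pairs, which bears on how their reads were assigned. On mm10 the Hba-a1 gene, at chr11:32283511-32284465, and Hba-a2, at chr11:32296489-32297298, lie on the plus strand. Hbb-bs, at chr7:103826534-103828096, and Hbb-bt, at chr7:103812524-103813996, lie on the minus strand. Of the 150-base words in the GENCODE M21 transcripts of Hba-a2, 73.1% also occurred in Hba-a1, and 57.0% of those of Hba-a1 occurred in another gene, namely Hba-a2. The figures were 45.6% for Hbb-bs and 50.7% for Hbb-bt, shared with each other. How reads that match several genes were counted is not given in the sources used here, so the split within each pair is uncertain. Alas2, at chrX:150547375-150570638, has its own difficulty. It lies inside the span of Apex2, a DNA repair gene on the opposite strand, and 311 of its 2403 exonic bases (12.9%) are also exonic there. Reads of Alas2 and Apex2 cannot be told apart in those bases if strand was not used in counting. Slc4a1, at chr11:102348824-102366203 on the minus strand, overlaps no other gene.

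In saline somatic cells, Hba-a1 was the most abundant member per unit of length, at 233 ± 65.0 FPKM (SD, n = 3). Hbb-bs followed at 104 ± 15.8 FPKM, Hbb-bt at 10.5 ± 0.936 FPKM and Alas2 at 2.40 ± 0.170 FPKM, and the libraries of neighbours in this order did not overlap. Hba-a2 stood at 0.0681 ± 0.0726 FPKM on 3 counts in all, and Slc4a1 at 0.0109 ± 0.0188 FPKM on 4 counts, and these last did not differ beyond their spread. In dex somatic cells the order of the first 4 was the same, with Hba-a1 at 162 ± 98.2 FPKM, Hbb-bs at 45.0 ± 31.7, Hbb-bt at 4.30 ± 2.45 and Alas2 at 1.33 ± 0.711. There the libraries of Hba-a1 (74.8 to 268) and Hbb-bs (19.2 to 80.3) overlapped, although Hba-a1 was above Hbb-bs within each library. In saline germ cells Hba-a1, at 2.67 ± 0.589 FPKM, and Alas2, at 2.25 ± 0.139 FPKM, overlapped, and Hbb-bs lay below both at 1.02 ± 0.385 FPKM. In dex germ cells Alas2 was the highest member, at 2.09 ± 0.668 FPKM, and its libraries (1.32 to 2.51) lay above those of Hba-a1 (0.584 to 1.13). Thus the globin genes led in the somatic fraction, while in the germ fraction Alas2 stood at or above them.

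**Figure D1:**
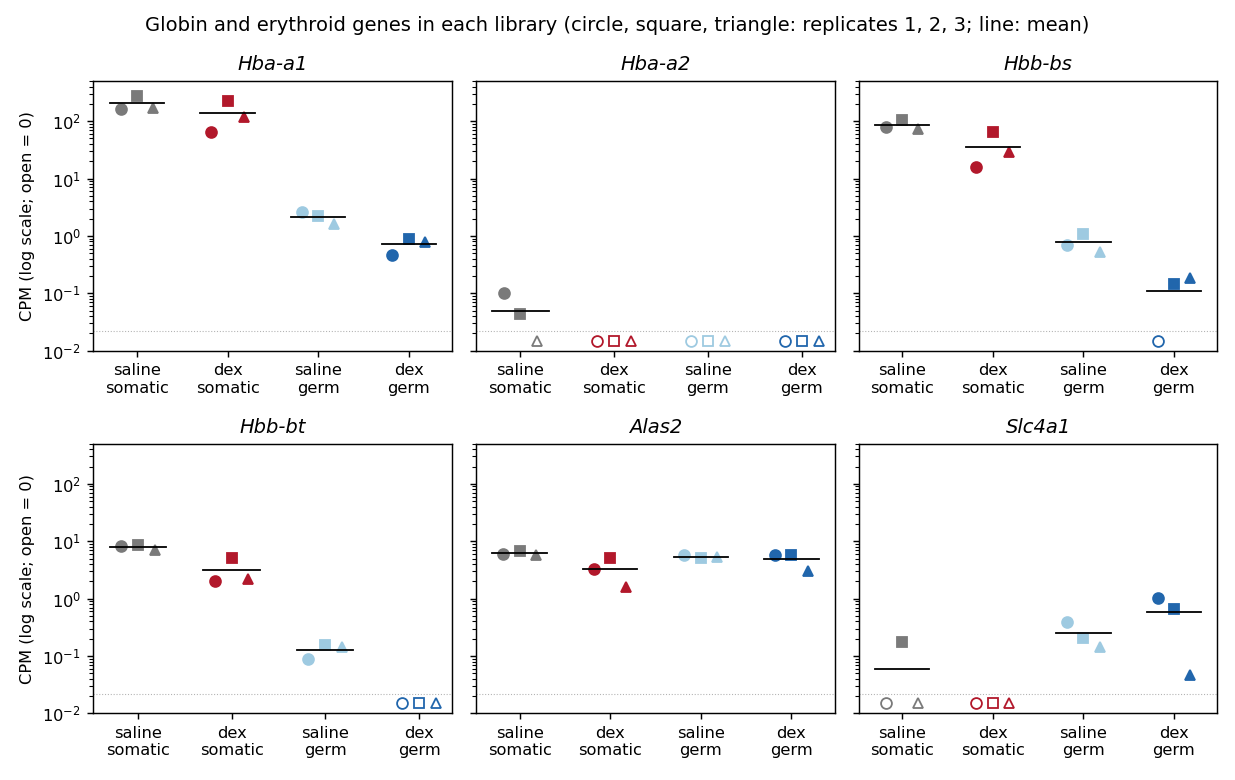
Level of each member in CPM (vertical axis, log scale) in the 12 libraries, by group, with filled symbols for replicates 1 (circle), 2 (square) and 3 (triangle), open symbols at the foot for libraries with 0 counts and a line at the group mean. Hba-a1, Hbb-bs and Hbb-bt were far higher in somatic than in germ libraries, Alas2 lay between 1.56 and 6.86 CPM in all 12, and Hba-a2 and Slc4a1 were at or near 0 in somatic libraries.

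Whether dex changed the red cell transcripts of the somatic fraction was tested first. Both beta globin genes were lower after dex: Hbb-bs fell to 0.432-fold and Hbb-bt to 0.409-fold of saline, and these calls were fragile. The alpha globin gene Hba-a1 and Alas2 had lower means after dex but did not pass the test. Hba-a2 and Slc4a1 had too few counts to be tested.

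Hbb-bs, an adult beta chain gene, was at 79.55, 103 and 74.0 CPM in the 3 saline somatic libraries and at 15.6, 63.7 and 28.45 CPM in the 3 dex somatic libraries. The groups did not overlap, but dex replicate 2 came close to the saline range and was 4.09 times dex replicate 1. The log2 fold change was -1.21 ± 0.32 (SE), with an adjusted p of 0.0471 by the quasi-likelihood test of edgeR with Benjamini-Hochberg adjustment over 16766 genes.

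Hbb-bt, the neighbouring adult beta chain gene, was at 8.12, 8.61 and 6.955 CPM with saline and at 2.04, 5.175 and 2.22 CPM with dex. Again no dex library reached the lowest saline library, and replicate 2 was the highest of its group. The log2 fold change was -1.29 ± 0.34, with an adjusted p of 0.0472 in the same fit.

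Hba-a1, the alpha chain gene that held nearly all alpha globin counts, was at 162, 276 and 172 CPM with saline and at 64.1, 225 and 120.3 CPM with dex. The groups overlapped, since dex replicate 2 exceeded saline replicates 1 and 3. The log2 fold change was -0.53 ± 0.30 (edgeR adjusted p = 0.416). Without dex replicate 2 it was -1.10, with an adjusted p of 0.0243, and without a filter on low counts the adjusted p was 4.44e-07.

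Alas2 was at 5.99, 6.86 and 5.69 CPM with saline and at 3.34, 5.07 and 1.56 CPM with dex. All dex libraries lay below all saline libraries, but here dex replicate 3 was the lowest, not replicate 1 as for the globin genes. The log2 fold change was -0.86 ± 0.36 (edgeR adjusted p = 0.249). Apex2, on the other strand, was at 18.7, 20.4 and 21.0 CPM with saline and at 22.1, 17.6 and 26.1 CPM with dex, and did not share that order.

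In the whole somatic comparison 655 of 16766 genes were called at an adjusted p at or under 0.05, or 3.91%, against 2 of the 4 members tested. Of the 655, 70.1% were higher with dex, or 53.6% of 709 when scaled by library totals. The tested members had a median log2 fold change of -1.04, and all genes tested one of -0.01. The call of Hbb-bs was lost in 8 of 14 alternative analyses and that of Hbb-bt in 7 of 13, with adjusted p-values from 1.59e-23 to 0.274 and from 0.00138 to 0.164, the lowest of each without a filter on low counts. Among these, leaving out any 1 of the 6 libraries other than dex replicate 2 lost both calls.

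**Figure D2:**
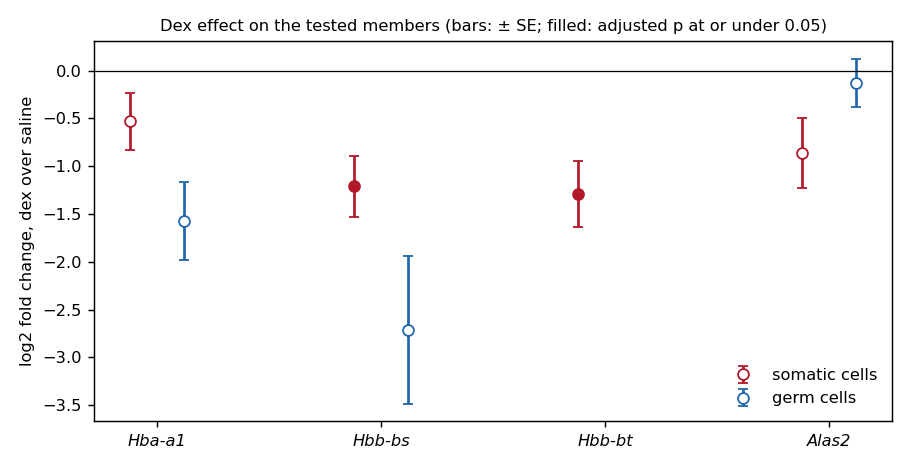
Log2 fold change of dex over saline (vertical axis) for each member tested, with bars of 1 SE, in somatic cells (red) and germ cells (blue), filled where the adjusted p was at or under 0.05. All 7 estimates lie below 0, from -0.13 for Alas2 in germ cells to -2.72 for Hbb-bs in germ cells, and only Hbb-bs and Hbb-bt in somatic cells are filled. In germ cells Hba-a1 and Hbb-bs passed the filter on low counts only through the saline libraries, and Hbb-bt was not tested.

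The make-up of the globin mRNA was then compared within libraries, as ratios into which the total globin level does not enter. The ratio of alpha to beta globin FPKM was 1.74, 2.32 and 1.99 in the saline somatic libraries and 3.403, 3.07 and 3.68 in the dex somatic libraries. The groups did not overlap, and alpha globin stood further above beta globin in each dex library than in any saline library. The means were 2.02 ± 0.289 and 3.38 ± 0.310 (SD, n = 3), with p = 0.10 in an exact permutation test (two-sided, adjusted p = 0.30 over 3 ratios), which is the smallest p that 3 against 3 libraries can give. Because reads shared by near-identical copies may have been dropped or split, the ratio itself is not a ratio of molecules. Hbb-bt made up 9.27%, 7.70% and 8.59% of beta globin counts with saline and 11.6%, 7.51% and 7.24% with dex, and these overlapped (exact permutation p = 1). Hba-a1 made up 99.9% to 100% of the alpha globin counts in every library. Alas2 stood at 7.91, 5.87 and 7.44 FPKM per 1000 FPKM of adult globin in saline somatic libraries and at 13.6, 5.75 and 3.46 in dex somatic libraries, so that its level relative to globin spread more widely after dex.

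**Figure D3:**
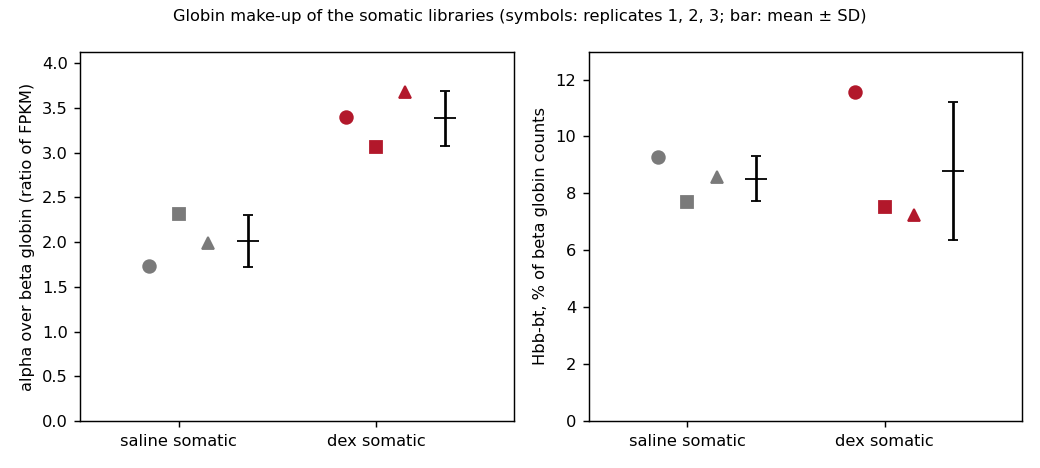
Left, alpha over beta globin as a ratio of FPKM, and right, Hbb-bt as a percentage of beta globin counts, in each somatic library (symbols for replicates 1, 2 and 3) with mean ± SD (bar). The ratio was 1.74 to 2.32 with saline and 3.07 to 3.68 with dex, while the Hbb-bt share overlapped between the groups.

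The embryonic and minor globin genes had few counts. The 7 genes together (the embryonic alpha gene Hba-x, the embryonic beta genes Hbb-y, Hbb-bh0, Hbb-bh1 and Hbb-bh2, and the theta genes Hbq1a and Hbq1b) had 12, 0 and 5 counts in saline somatic libraries and 7, 0 and 0 in dex somatic libraries. In germ libraries they had 11, 5 and 2 counts with saline and 0, 2 and 1 with dex. In somatic libraries every one of these counts belonged to Hbq1b (17 counts, all with saline) or Hbq1a (7 counts, all in 1 dex library), which are themselves a pair of copies. Hba-x had 13 counts in saline germ and 1 in dex germ. None passed the filter on low counts.

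Globin transcripts stood without most other defining genes of red cell precursors in the somatic libraries. Slc4a1 had 0, 4 and 0 counts with saline and 0 in each dex library, which allows up to 0.170 CPM in a dex library at 3 counts. Rhag, the Rh-associated glycoprotein gene, had no count in any somatic library, nor did Gfi1b, a transcriptional repressor of erythroid and megakaryocyte cells. Epb42, encoding a band 3 binding protein of the membrane skeleton, had 4 counts with saline and 0 with dex, and Hemgn, encoding the nuclear factor hemogen, had 1 and 0. Klf1, the activator of the adult beta globin gene, was at 0.859 ± 0.594 CPM in saline somatic and at 1.04 ± 0.426 CPM in saline germ libraries. Apart from Slc4a1, these genes were singled out after their values were seen.

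In the 4 other lists of erythroid genes, 1 gene was called in somatic cells under dex, beside 3.91% of all genes. Of 18 genes of the red cell membrane and skeleton, 12 were tested, and only Aqp1 was called, with 4 genes at an unadjusted p under 0.05. Aqp1, a water channel of red cells and of vessel endothelium, rose from 13.7 ± 0.215 to 21.9 ± 3.95 CPM, and its log2 fold change was 0.71 ± 0.16 (edgeR adjusted p = 0.0180). None of 16 genes of heme synthesis and iron supply was called by edgeR, DESeq2 or limma-trend, with 3 at an unadjusted p under 0.05 in edgeR and a median log2 fold change of 0.03. None of 11 tested erythroid transcription factors and receptor genes was called by any of the 3 tools (1 at an unadjusted p under 0.05, median 0.01), and none of 16 tested genes of reticulocyte enzymes and maturation (3 at an unadjusted p under 0.05, median 0.07). The most abundant of each list over the 12 libraries were the glucose transporter Slc2a1, at 13.4 FPKM, the heme enzyme Alad, at 86.3 FPKM, the cofactor Ldb1, at 59.4 FPKM, and the peroxidase Prdx2, at 75.6 FPKM. Their log2 fold changes with dex in somatic cells were 0.10, 0.36, 0.01 and 0.06, none called.

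Of 10 genes that clear hemoglobin and break down heme, 2 were called in somatic cells and both rose, beside 3.91% of all genes called, of which 459 of 655 rose. Hp encodes haptoglobin, which binds free hemoglobin in plasma, and rose from 1.47 ± 0.591 to 4.82 ± 1.39 CPM, and its log2 fold change was 1.73 ± 0.43 (edgeR adjusted p = 0.0331). Lrp1, the endocytic receptor that takes up heme bound to hemopexin among many other ligands, rose from 1020 ± 105 to 1253 ± 99.3 CPM, and its log2 fold change was 0.33 ± 0.08 (edgeR adjusted p = 0.0425). Adjusted p-values over the alternatives ran from 0.00234 to 0.153 for Hp, from 0.00199 to 0.191 for Lrp1 and from 0.00134 to 0.169 for Aqp1. The ferritin heavy chain gene Fth1, the most abundant of the list at 698.5 FPKM over the 12 libraries, had a log2 fold change of 0.22 ± 0.09, which was not called.

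Other blood and vessel genes moved in the same somatic libraries, where 3.91% of all genes were called. All 7 macrophage markers had lower estimates after dex (median log2 fold change -1.19), and Csf1r, the receptor of the macrophage growth factor CSF1, and Lyz2, lysozyme, were called. Adgre1 and C1qc passed the filter on low counts only through the saline libraries, so their lower estimates carry no weight. The summed level of the 7 was 47.3, 53.9 and 81.3 CPM with saline and 28.5, 25.3 and 19.8 CPM with dex, without overlap. All 4 lymphocyte markers tested had lower estimates (median -1.43, with the B cell gene Cd79a called). Cd79a, with 7, 6 and 9 counts with dex, passed the filter on low counts only through the saline libraries. So did Cd79b and Ptprc, and the lower estimates of these genes and the call of Cd79a carry no weight. The summed level of all 7 lymphocyte markers was 5.41 to 6.30 CPM with saline and 1.07 to 2.52 CPM with dex. Neutrophil markers overlapped between the groups. They summed to 32.5, 18.15 and 33.7 CPM with saline and to 26.4, 43.8 and 19.8 CPM with dex, with 0 of 5 tested called by edgeR, DESeq2 or limma-trend and 0 at an unadjusted p under 0.05 in edgeR. Replicate 2 had the most globin in each group. It also had the highest endothelial sum in each group and, with dex, the highest neutrophil sum, while the macrophage sum was highest in saline replicate 3 and dex replicate 1. In dex replicate 2 only Cdh5 and Emcn were the highest of the dex group, while Pecam1, Kdr, Tek, Tie1 and Esam were the lowest. Endothelial markers summed to 257 to 291 CPM with saline and 253 to 326 CPM with dex, and Cdh5, which encodes the cadherin of vessel junctions, held 198 to 303 CPM of a library's sum. Of the 7, 6 had lower estimates after dex (median log2 fold change -0.49), with 4 at an unadjusted p under 0.05, the vessel receptor gene Tek called by edgeR and 2 genes called by DESeq2. Platelet markers were at 4.33 to 5.84 and 3.20 to 7.76 CPM, with the defining genes Ppbp and Gp1bb at 0 in all 6 libraries. Sertoli markers (3816 to 3868 and 3450 to 4119 CPM) and Leydig markers (121 to 205 and 86.5 to 177 CPM) overlapped, with the steroid transport gene Star called, lower. The part of these cell types in the globin values was not tested.

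**Figure D4:**
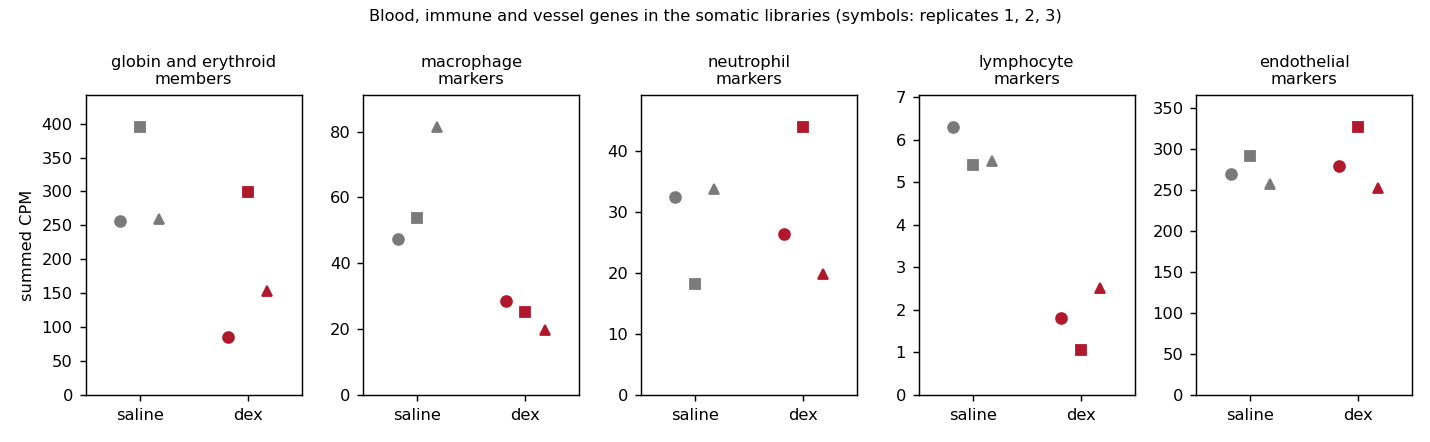
Summed CPM (vertical axis, from 0, with a scale for each panel) of the members and of macrophage, neutrophil, lymphocyte and endothelial markers in the 3 saline and 3 dex somatic libraries, with circles, squares and triangles for replicates 1, 2 and 3. The members overlapped between the groups (256 to 394 and 85.1 to 299 CPM), macrophage and lymphocyte markers did not, and neutrophil and endothelial markers overlapped.

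Germ cells held about 1 part in 100 of the somatic globin level. In saline animals Hba-a1 stood at 1.05% of its somatic CPM (95% counting interval 0.871% to 1.23%), Hbb-bs at 0.904% (0.651% to 1.17%) and Hbb-bt at 1.63% (0.689% to 3.19%). Alas2 stood at 86.1% (74.1% to 99.8%), apart from the globin genes. These exact binomial intervals cover counting error only.

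For the germ against somatic comparison in saline, edgeR gave log2 fold changes of -6.57 ± 0.25 for Hba-a1 and -6.80 ± 0.23 for Hbb-bs, both called, while that of Alas2 was -0.22 (adjusted p = 0.394), beside 76.5% of 18870 genes called. Hbb-bt had 2, 3 and 3 counts in germ libraries and passed the filter on low counts only through the somatic libraries, so its call carries no weight. With dex the log2 fold change was -7.55 for Hba-a1, which was called. Hbb-bs, with 0, 4 and 4 counts in germ libraries, and Hbb-bt passed the filter only through the somatic libraries there. Hbb-bt had no count in any dex germ library and was at least 22.5-fold higher in dex somatic cells, taking a floor of 3 counts per library. Alas2 had a log2 fold change of 0.55 (edgeR adjusted p = 0.260), and 76.3% of 18778 genes were called.

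Germ libraries also held transcripts of other cell type marker lists, at shares of the somatic level that differed between lists. The Sertoli markers stood at 1.31% of their somatic level in saline animals and at 0.945% in dex animals. Amh, the Sertoli hormone gene and the most abundant of them, stood at 0.677% and 0.420%. Macrophage markers stood at 8.70% and 18.1%, and Leydig markers at 6.19% and 5.32%. The macrophage sum in germ cells was 5.29 CPM with saline and 4.45 CPM with dex, while the somatic sum went from 60.8 to 24.55 CPM. Cd68 was the highest macrophage marker in each germ library, whereas Lyz2 stood at 1.28% and 3.02% and Csf1r at 4% and 10.4%. Neutrophil markers stood at 3.91% and 6.09%, with S100a8 and S100a9 at 0 in every germ library but Ltf and Camp above 0 in all 6. Endothelial markers stood at 22.1% and 21.5%, whereas lymphocyte markers (138% and 425%) and platelet markers (136% and 152%) summed higher in germ than in somatic libraries. Genes differed within these lists too, as the endothelial marker Pecam1 alone stood at 151% and 313%. Cd79a was the highest lymphocyte marker in each germ library, while Ptprc was lower in every germ library than in any somatic one. The adult globin genes together stood at 1.02% (0.871% to 1.16%) with saline and at 0.470% (0.358% to 0.607%) with dex.

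The dex comparison in germ cells rested on few counts. Hba-a1 had 59, 42 and 34 counts with saline, or 2.59, 2.19 and 1.62 CPM, and 10, 24 and 17 counts with dex, or 0.462, 0.888 and 0.792 CPM. All dex libraries lay below all saline libraries. The log2 fold change was -1.57 ± 0.41, which did not pass the test (edgeR adjusted p = 0.0785, or 0.0224 without a filter on low counts). Dex replicate 1, at 10 counts, fell just under the limit of the filter. Hba-a1 thus passed it only through the saline libraries, and this test carries no weight.

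Hbb-bs had 16, 21 and 11 counts with saline and 0, 4 and 4 with dex, likewise without overlap. Its log2 fold change was -2.72 ± 0.77 (edgeR adjusted p = 0.101). Hbb-bs passed the filter on low counts only through the saline libraries, so this test carries no weight. Hbb-bt had 2, 3 and 3 counts with saline and none with dex, and was not tested. Alas2 was at 5.70, 5.01 and 5.245 CPM with saline and at 5.72, 5.85 and 3.07 CPM with dex, which overlapped, with a log2 fold change of -0.13 ± 0.25 (edgeR adjusted p = 0.869).

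None of the 3 members tested in germ cells was called by edgeR, DESeq2 or limma-trend, beside 231 of 18550 genes called, or 1.25%. In edgeR 2 were at an unadjusted p under 0.05, Hba-a1 and Hbb-bs, and both passed the filter only through the saline libraries. Sertoli markers had lower estimates after dex in 7 of 7 genes in the same germ libraries (median log2 fold change -0.49, 4 at an unadjusted p under 0.05, none called by edgeR, DESeq2 or limma-trend), and their summed level was 46.7 to 54.6 CPM with saline and 28.5 to 39.8 CPM with dex. The 4 Leydig markers tested had lower estimates too (median -0.74, 2 at an unadjusted p under 0.05, none called by the 3 tools). Of these, Hsd3b1 and Cyp11a1 passed the filter on low counts only through the saline libraries, as did the Sertoli marker Cldn11. The lower estimates of these genes carry no weight. Not every list was lower: neutrophil markers, none of which passed the filter, summed to 0.921 to 1.38 CPM with saline and 1.77 to 1.89 CPM with dex. Macrophage, lymphocyte, endothelial and platelet sums overlapped between the groups. The globin, Sertoli and Leydig transcripts were lower in the same 3 libraries, and the part of carried-over somatic RNA in the germ values was not tested.

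Slc4a1, unlike the globin genes, had more counts in germ than in somatic libraries. It had 9, 4 and 3 counts in saline germ, 22, 18 and 1 in dex germ, and 4 counts in the 6 somatic libraries together. The dex germ group thus ranged from 0.0466 to 1.02 CPM, wider than its distance from saline germ (0.143 to 0.395 CPM), and the gene did not pass the filter in any comparison with all libraries. Without a filter its adjusted p by edgeR was 0.000386 for germ against somatic cells in dex, where the somatic libraries had no count, and 0.278 in saline. Epb42 had 15 counts in saline germ and 29 in dex germ, and Hemgn 11 and 19.

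The test of the difference between the dex effects, germ minus somatic, over all 12 libraries called none of the 4 members, beside 170 of 20551 genes (0.827%), with 1 member at an unadjusted p under 0.05 and none called by DESeq2 or limma-trend. The differences in log2 fold change were -0.98 for Hba-a1 (adjusted p = 0.613), -1.43 for Hbb-bs, -3.17 for Hbb-bt (adjusted p = 0.330) and 0.77 for Alas2 (adjusted p = 0.542). Hbb-bt had no count in any dex germ library and passed the filter on low counts only through the somatic libraries, so its difference carries no weight. That of Hbb-bs rested on 0, 4 and 4 counts in the dex germ libraries. A difference in the dex effect on globin between the populations was therefore not shown, and for the beta globin genes it could hardly be tested.

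The erythroid lists held genes called in both directions between germ and somatic cells. In saline, 5 of 12 tested membrane genes were higher in germ cells and 4 lower (median log2 fold change 0.02), 5 of 13 transcription factor and receptor genes were higher and 5 lower (median 0.32), and 8 of 18 reticulocyte genes were higher and 5 lower (median 0.29). Of 16 genes of heme synthesis and iron supply, 2 were higher in germ cells and 10 lower (median -0.68). Over all 18870 genes the median was 0.07 and 76.5% were called, 7512 higher and 6929 lower, so the share called in each list was near that of all genes.

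Several genes with a name in red cell biology had higher levels in germ libraries. They were chosen after their values were seen, so their levels are given with no test. Gfi1b had 158 counts in saline germ and 217 in dex germ, or 2.47 ± 0.837 and 3.02 ± 0.953 CPM, against 0 in all 6 somatic libraries. Rhd, the Rh blood group gene, was at 12 ± 1.04 CPM in saline germ and 0.223 ± 0.306 CPM in saline somatic cells. Tspan33, a tetraspanin needed for red cell formation, was at 32.2 ± 3.57 and 1.75 ± 0.303 CPM. In the opposite direction, Prdx2 was at 55.3 ± 3.81 CPM in saline germ and 422 ± 29.6 CPM in saline somatic cells, a log2 fold change of -2.93 ± 0.09 (edgeR adjusted p = 4.76e-11), and was named as the most abundant gene of its list. Their log2 fold changes with dex in germ cells were 0.28, 0.48, 0.17 and -0.05, and edgeR called none of the 4.

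**Figure D5:**
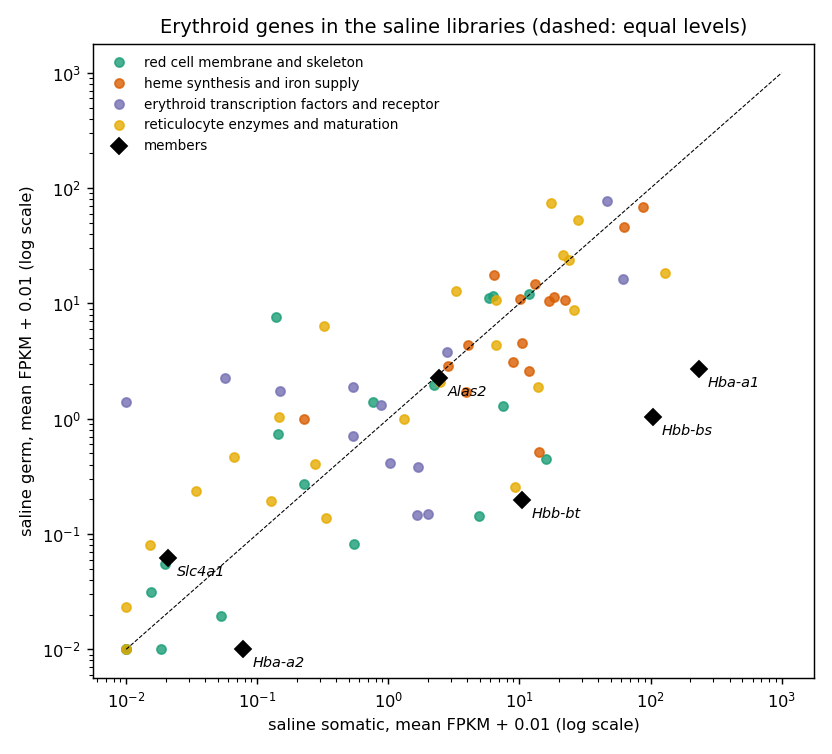
Mean FPKM plus 0.01 in saline somatic (horizontal) and saline germ (vertical) libraries, both on log scales, for the members (black diamonds, named) and 4 erythroid lists (coloured circles), with a dashed line at equal levels. Hba-a1, Hbb-bs and Hbb-bt lie far below the line, Alas2 lies near it, and the other lists lie on both sides of it.

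In germ cells under dex, 2 genes of the erythroid lists were called, beside 1.25% of all genes. They were 1 of 11 membrane genes tested and 1 of 19 reticulocyte genes, with none of 16 heme synthesis genes and none of 13 transcription factor and receptor genes. Slc2a1, the glucose transporter GLUT1, rose from 41.3 ± 1.13 to 58.7 ± 2.86 CPM, and its log2 fold change was 0.50 ± 0.09 (edgeR adjusted p = 0.0170, from 7.45e-05 to 0.0905 over the alternatives). Mkrn1, a ubiquitin ligase gene, rose from 115 ± 13.3 to 185 ± 28.2 CPM, and its log2 fold change was 0.68 ± 0.11 (edgeR adjusted p = 0.00669, from 1.97e-13 to 0.0995). No gene of heme synthesis, of the transcription factors or of hemoglobin clearance was called by edgeR, with 1, 4 and 3 at an unadjusted p under 0.05. DESeq2 called 0, 1 and 1 of them and limma-trend none.

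How the members varied together across libraries was described by the correlation of deviations from the group means of log2 CPM over the 12 libraries, against the summed members. The 10 most alike of 16252 other genes were Nrip3 (r = 0.92), Golga2, Col2a1, Gm44777, Slc24a2, Poll, Cep41, Zfp346, Ctso and Adal (r = 0.90), and none is in the erythroid lists. Against the sum of the other members, Hbb-bt reached 0.72, Hba-a1 0.67, Slc4a1 0.48, Hbb-bs 0.47 and Alas2 0.47. In the 6 somatic libraries alone, where the globin counts are high, Hbb-bs reached 0.98, Hba-a1 0.96 and Hbb-bt 0.89 while Alas2 reached 0.40, and 1 of the 10 genes above, Cep41, was among the 10 most alike. With so few libraries and so many genes these values describe an order and no more.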

How the data were processed

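RNA of sorted newborn testis cells was selected on poly-dT, sequenced as paired ends and, per the labels, aligned to mm10 with HISAT2 2.0.5 and counted with featureCounts 1.5.0-p3. The authors deposited raw counts per gene and FPKM, in which counts are divided by gene length and library size. Their own DESeq2 1.20.0 comparisons (fold changes and p-values) were not used. Strand and multiple-match settings are not given in the sources used here. Groups came from the labels. Counts were fitted in R 4.3.3 with the quasi-likelihood test of edgeR 4.0.16 (TMM, filterByExpr at a minimum count of 10, Benjamini-Hochberg over all genes tested, threshold 0.05), the 6 libraries of a comparison alone, or all 12 for the difference of dex effects. SE is the log2 fold change over the square root of F. Alternatives used DESeq2 1.42.0, limma 3.58.1 on log2(FPKM + 0.1), library totals, no filter, copies summed, the replicate number as a block and left-out libraries. Scripts were tested on simulated data. CPM is scaled by TMM over all 12 libraries, log2 CPM uses a prior count of 2, and the floor is 3 counts per library. Depth was 18459692 to 25178477 counts. The text names all members, listed genes called under dex, the most abundant gene of each erythroid list and the 10 genes most like the members. Members and lists were chosen with earlier results of these data known. P-values measure the spread between replicates, each a pool of litters. Some results on single listed genes are not reported here.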

Additional observations from a re-analysis of the deposited data

Results flagged for a closer look

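The test of the difference between the dex effects in germ and in somatic cells, over all 12 libraries, picked out 4 listed genes and no globin gene. Of all genes tested, 170 of 20551 were called (0.827%). The 4 were 1 each of 20 reticulocyte genes, 10 genes of hemoglobin clearance, 7 endothelial markers and 7 germ cell markers tested. Mkrn1, of the reticulocyte list, had a difference of 0.70 on the log2 scale (edgeR adjusted p = 0.0360), as it was at 115 and 185 CPM in saline and dex germ cells and at 102 and 101 CPM in saline and dex somatic cells. Ftl1, the ferritin light chain gene, had a difference of -0.50 (edgeR adjusted p = 0.0420), at 423.5 and 346 CPM in germ cells and at 520.3 and 601 CPM in somatic cells. Among the cell type markers, Pecam1 had a difference of 1.05 (edgeR adjusted p = 0.0496), at 24.0 and 29.9 CPM in germ cells and 15.8 and 9.53 CPM in somatic cells. Ddx4 had a difference of 1.28 (edgeR adjusted p = 0.0462), with somatic levels of only 1.38 and 0.606 CPM against 599 and 634 CPM in germ cells. Each call was lost in 11 or 12 of 19 alternatives, with adjusted p-values from 0.000140 to 0.123 for Mkrn1, from 0.00252 to 0.131 for Ftl1, from 0.00329 to 0.145 for Pecam1 and from 0.000728 to 0.159 for Ddx4. No group has more than 3 libraries, so no single library was tested as an outlier.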

How the results depend on the processing

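Of 608 refitted fold changes of named genes, 1 changed sign, namely Alas2 under dex in germ cells, which ran from -0.28 to 0.11 with a library left out (0.11 without dex germ replicate 3), and 108 lost a call. Genes called in somatic cells under dex numbered 1061 without a filter and 251 with limma-trend, and 354 to 547 with a library left out. Members called there numbered 1 with DESeq2, 0 with limma-trend or with all 12 libraries in one fit, and 0 to 3 with a library left out. Genes called in germ cells under dex numbered 711 with DESeq2, 767 without a filter (with 1 member, Hba-a1), 6 with limma-trend, 142 with all 12 libraries in one fit, and 49 to 265 with a library left out. For the difference of dex effects the numbers were 648, 706 (with 1 member, Hba-a1), 57 with DESeq2, without a filter and with limma-trend, and 79 to 172 with a library left out. With library totals, 67.0% of 221 calls of that difference were positive, against 50%. The replicate numbers were not taken to pair the libraries, as same-numbered libraries correlated at 0.075 or less. Between saline germ and saline somatic libraries each correlated best with its own number (0.045 to 0.054), a hint from the data alone. Both fractions were sorted from pooled testes, so germ and somatic libraries may share pools, but the sources used here do not say which. The tests that join germ and somatic libraries treated them as independent. With the replicate block, genes called numbered 669 in somatic cells, 65 in germ cells and 104 for the difference, members called under dex in somatic cells were Hba-a1, Hbb-bs and Hbb-bt, 3 in all, and the calls of Cd79a, Hp, Slc2a1, Ftl1, Ddx4 and Pecam1 were lost. The alpha over beta ratio with dex was 1.68 times that with saline, from FPKM or from raw counts. The genes most like the members shared 7 of 10 with library totals and 1 of 10 in somatic libraries alone. The call of Hba-a1 between germ and somatic cells was kept in every alternative run, as was that of Hbb-bs in saline. With dex, Hbb-bs and Hbb-bt passed the filter only through the somatic libraries, so their calls there carry no weight. Members called between germ and somatic cells with dex numbered 3, with Hbb-bs and Hbb-bt among them. They numbered 4 without a filter or without 1 of 4 libraries (any dex somatic one or dex germ replicate 3). The cause of these changes was not tested. Depth limits Slc4a1, Hba-a2 and the germ globin values, which rest on 0 to 59 counts per library.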
